A study of Xenopus tropicalis with 21 samples.

Results

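Iron and heme handling genes were followed in liver RNA of mature female tropical clawed frogs, Xenopus tropicalis. The group was given by 10 gene symbols: tf, tfrc, tfr2, slc40a1, slc11a2, fth1, hmox1, hpx, cp and alas1. A row of the deposited tables was taken as a member where its gene name, in lower case, equalled one of these symbols or the symbol followed by a dot and a number. This found 9 of the 20288 rows of each table. Of these, 8 held a usable value in F1 and 7 in F2. The ferritin heavy chain row, fth1.1, is marked as having too much data in both tables, and the transferrin row, tf, is so marked in F2, so they are only named there. The tfr2 gene has no row of its own. It shares one with a second gene, LOC105945865, whose values are given beside the members and are not counted with them.

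The tables compare 6 F1 BaP with 5 F1 control frogs and 5 F2 BaP with 5 F2 control frogs. The BaP groups descend from F0 frogs that lived in benzo[a]pyrene (BaP), a polycyclic aromatic hydrocarbon, at 50 ng/L from the tadpole to the adult stage, and the control groups descend from control F0 frogs. All frogs sequenced were unexposed females, so "BaP" names a lineage here. The authors deposited 1 FPKM value per group and gene (sequenced fragments scaled by transcript length and by the number mapped), which stands for all frogs of the group. Values of single frogs, their spread and the depth of each library are therefore unknown. A gene was called where the authors' Cuffdiff test was done and its q, the p adjusted over all tested genes of the table, was under 0.05. Precision is given as a 95% interval of the log2 fold change, with a standard error taken from the authors' p.

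Iron travels in plasma bound to transferrin and enters cells through the transferrin receptor, after which a proton-coupled importer moves it out of the endosome. Ferritin stores it, ferroportin (slc40a1) exports it, and ferroxidases such as ceruloplasmin oxidise it for loading onto transferrin. The hormone hepcidin, made in the liver, closes this cycle by removing ferroportin from the cell surface. Heme is built from glycine and succinyl-CoA in a pathway that starts with ALA synthase, is broken down by heme oxygenase to biliverdin, iron and carbon monoxide, and is carried in plasma by hemopexin. Hepatocytes make most of the plasma carriers, and liver macrophages recycle the iron of old red cells.

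Of the members with a usable value, tf and hpx were the most abundant in F1 and hpx and cp in F2, and the uptake genes tfrc and slc11a2 were the least abundant in all 4 groups. No member was called in either generation. In F1 livers, Cuffdiff called 0 of 8 members, where 1.67% of all 12426 tested rows were called, and 0 of 8 had an unadjusted p under 0.05, against 8.91% of rows. In F2 livers it called 0 of 7, against 1.32% of 12236 rows, and 1 of 7 had an unadjusted p under 0.05, against 8.9%. That gene was cp, which encodes ceruloplasmin. The median log2 fold change of the members was 0.09 in F1, beside 0.02 over all tested rows, and -0.21 in F2, beside -0.03. Over all tested rows, 53.2% of log2 fold changes were above 0 in F1 and 45.8% in F2, which stand beside every count of signs below. The median size of a member's log2 change was 0.15 in F1 and 0.48 in F2, beside 0.22 and 0.21 over all tested rows.

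**Figure D1:**
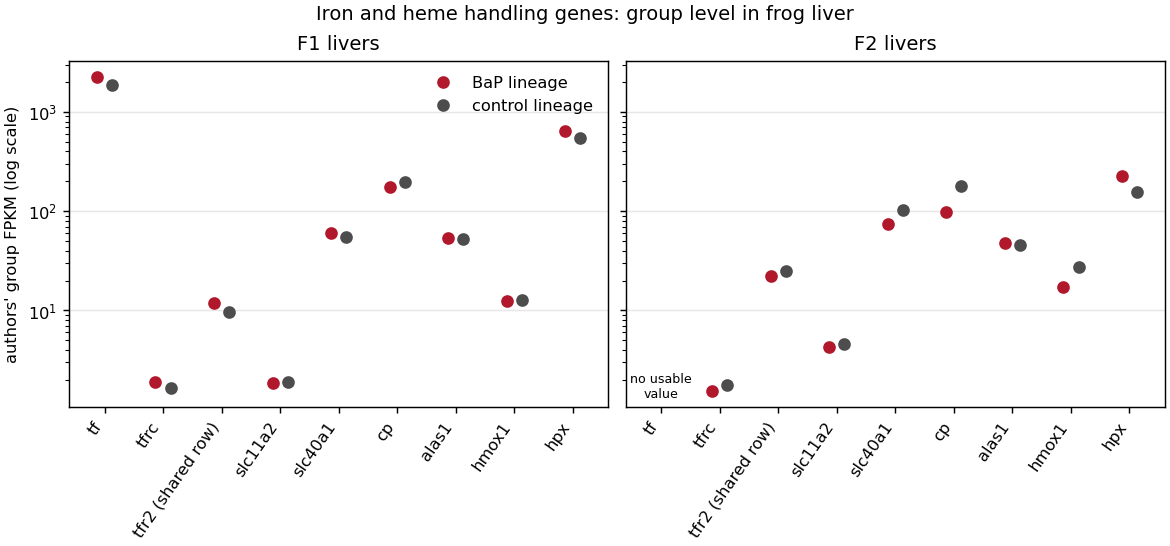
Authors' group FPKM (vertical axis, log scale) of each iron and heme handling gene in BaP and control livers of F1 (left) and F2 (right), with 1 point per group and no spread between frogs. In F1 the levels run from 1.66 FPKM for tfrc in controls to 2258 FPKM for tf in BaP livers, and in F2 the largest gaps between the lineages are those of cp and hmox1.

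The order of levels was nearly the same in BaP and control livers of a generation. In F1 it ran tf, hpx, cp, slc40a1, alas1, hmox1 in both groups, with tfrc and slc11a2 last and in exchanged places. In F2, where tf had no usable value, hpx stood above cp in BaP livers and below it in control livers, and the other 5 genes kept 1 order: slc40a1, alas1, hmox1, slc11a2, tfrc. With no spread between frogs, it cannot be said which neighbours in these orders differ beyond it. Mean FPKM of tf in F1 exceeded that of 99.3% of tested rows, and that of tfrc exceeded 22.4%.

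Transferrin, tf (chromosome 5, 129970325 to 129991089), carries ferric iron in plasma. Its level in F1 was 2258 FPKM in BaP livers and 1872 FPKM in control livers. The authors' deposited table gives a log2 fold change of 0.27 (q = 0.9995), with an interval of -1.02 to 1.56, the widest of the members. F1 rows at 1000 FPKM or more had a median log2 fold change of 0.66, so tf lay 0.39 below its class (-0.39 after subtraction), where its deposited value is above 0. In F2 the same row is marked as having too much data and gives no level.

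Cellular uptake was represented by receptors and an importer. The transferrin receptor gene tfrc (chromosome 5, 102784852 to 102803452) had 1.91 FPKM in BaP and 1.66 FPKM in control livers of F1, and 1.53 FPKM in BaP and 1.77 FPKM in control livers of F2. These values gave log2 fold changes of 0.20 and -0.21 in the authors' deposited tables, with intervals of -0.36 to 0.77 and -0.70 to 0.28. The levels were thus low in all 4 groups and neither difference was called. Transferrin receptor 2, tfr2, serves as an iron sensor of hepatocytes in mammals. The row it shares with LOC105945865 (chromosome 3, 152285121 to 152313742) had 12.0 FPKM in BaP and 9.72 FPKM in control livers of F1, and 22.0 FPKM in BaP and 25.1 FPKM in control livers of F2. Its log2 fold changes in the authors' deposited tables were 0.30 and -0.19 (q = 0.9995 and 0.981), and the part of each gene in that row is unknown.

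The divalent metal transporter gene slc11a2 (chromosome 2, 142078982 to 142112710) brings ferrous iron out of the endosome. It had 1.88 FPKM in BaP and 1.92 FPKM in control livers of F1. In F2 it had 4.32 FPKM in BaP and 4.63 FPKM in control livers. The lineages thus lay close to each other in both generations, with log2 fold changes of -0.03 and -0.10 in the authors' deposited tables. The intervals, -0.81 to 0.75 and -0.63 to 0.43, still allow changes of either sign.

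Ferroportin, slc40a1 (chromosome 9, 47793288 to 47812854), is the known iron exporter of vertebrate cells and the target of hepcidin. Its level was 60.2 FPKM in BaP and 54.6 FPKM in control livers of F1, a log2 change of 0.14 as listed in the authors' deposited table. In F2 it was 73.7 FPKM in BaP and 102 FPKM in control livers, a log2 change of -0.48 as listed in the authors' deposited table (p = 0.146, q = 0.791, Cuffdiff), with an interval of -1.12 to 0.17. The exporter thus stood far above the endosomal importer slc11a2 in every group. The FPKM of slc40a1 was 32.1 times that of slc11a2 in F1 BaP livers and 28.5 times in F1 controls, and 17.0 times in F2 BaP livers and 22.1 times in F2 controls. A further importer gene, slc39a14, lay nearer to slc40a1. It had 27.3 FPKM in BaP and 19.9 FPKM in control livers of F1, and 25.9 FPKM in BaP and 17.8 FPKM in control livers of F2.

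Ceruloplasmin, cp, is a copper-containing plasma ferroxidase made by hepatocytes. Its row (chromosome 5, 122204827 to 122251271) begins 22819 bases before the gene's start in RefSeq, so it may include other transcripts. In F2 it had 97.7 FPKM in BaP and 179 FPKM in control livers. This was the largest deposited change of a member in either generation, a log2 change of -0.87 as listed in the authors' deposited table (interval -1.60 to -0.14, p = 0.0195). It was not called (q = 0.358, Cuffdiff), and 5.44% of all tested F2 rows had a p as small. After subtraction of FPKM class medians in F2, the value of cp was -0.68 and that of hpx, at 0.71, was larger in size. In F1, cp had 174 FPKM in BaP and 196 FPKM in control livers, a log2 change of -0.17 as listed in the authors' deposited table (interval -1.08 to 0.75). With a standard error from the deposited test statistic in place of the p, the F2 interval widens to -2.48 to 0.73.

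Hepatocyte markers were mostly below 0 in the same F2 comparison: 11 of 13 tested markers had a negative log2 fold change, with a median of -0.30. Of the 13, 0 were called by Cuffdiff, beside 1.32% of all rows, and 0 had an unadjusted p under 0.05, beside 8.9%. The summed FPKM of the list was 9849 in BaP and 12654 in control livers of F2, no tested marker was listed at 0, and alb is marked as having too much data in both tables. In F1 the list was above 0 in 10 of 13 genes, with a median of 0.29 and sums of 10152 FPKM in BaP and 7814 FPKM in control livers. Cuffdiff called 0 of these in F1, beside 1.67% of all rows, and 1 had an unadjusted p under 0.05, or 7.69% beside 8.91%. Over all tested rows the sums were 973972 FPKM in BaP and 712518 FPKM in control livers of F1. In F2 they were 1014860 FPKM in BaP and 1120690 FPKM in control livers. After subtraction of the median of each gene's FPKM class, the medians of the marker list were 0.02 in F1 and -0.12 in F2. The lowest value in F2 was that of the fibrinogen gene fgg, with 1622 FPKM in BaP and 2383 FPKM in control livers (log2 change -0.55, q = 0.773, Cuffdiff). The markers above 0 in F2 were f2 and tat, each at 0.16. The part of these shifts in the values of cp, hpx and tf was not tested. In bulk liver, fewer cells of a type and less RNA per cell cannot be told apart.

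**Figure D2:**
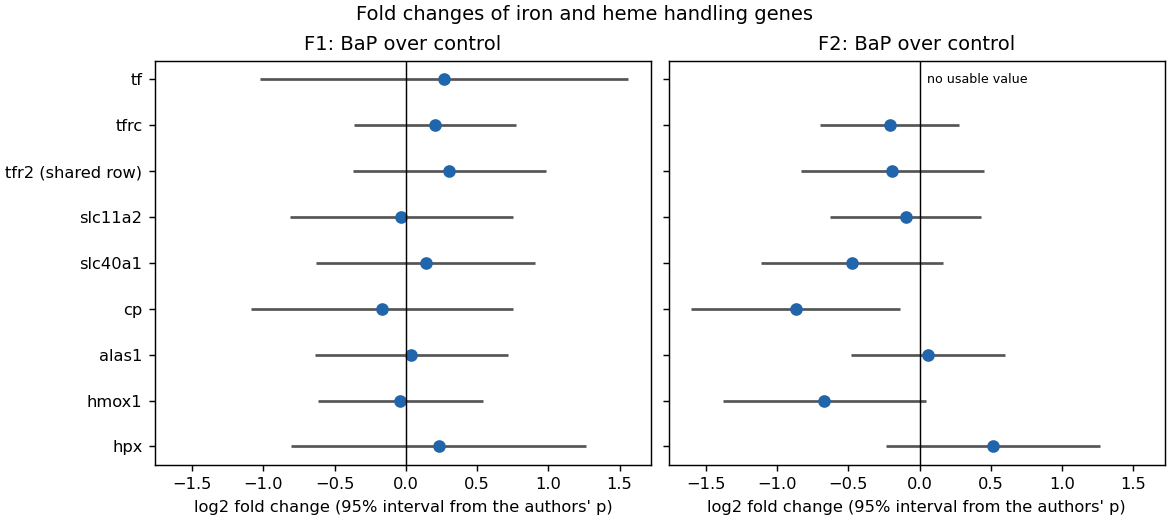
Log2 fold change of BaP over control (horizontal axis) for each gene in F1 (left) and F2 (right), from the authors' deposited tables, with bars for the 95% interval derived from the authors' p. All F1 intervals span 0, and in F2 the interval of cp (-1.60 to -0.14) is the one that does not.

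Storage could not be followed in the listed ferritin gene. The row of fth1.1, the ferritin heavy chain (chromosome 7, 113271079 to 113274384), was not tested in either table for having too much data. Of the other storage genes with a row, 2 were tested. The gene named ftmt, after mitochondrial ferritin in human, had 1658 FPKM in BaP and 917 FPKM in control livers of F1, and 2444 FPKM in BaP and 2029 FPKM in control livers of F2. Its F1 log2 change of 0.86 as listed in the authors' deposited table was not called (p = 0.0473, q = 0.544, Cuffdiff), and after subtraction of the median of F1 rows at that level 0.20 remained. The ferritin autophagy receptor gene ncoa4 had 16.1 FPKM in BaP and 9.41 FPKM in control livers of F1, a log2 change of 0.77 as listed in the authors' deposited table (p = 0.0162, q = 0.316), and 30.6 FPKM in BaP and 40.4 FPKM in control livers of F2, with -0.40.

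Heme synthesis starts with ALA synthase, and alas1 (chromosome 4, 128825410 to 128842199) is its form in most tissues, induced in mammalian liver when heme is consumed. It was the member with the closest levels across the 4 groups. Livers of F1 had 53.6 FPKM in the BaP lineage and 52.2 FPKM in controls, and livers of F2 had 47.5 FPKM in the BaP lineage and 45.5 FPKM in controls. The log2 fold changes in the authors' deposited tables were 0.04 and 0.06, with intervals of -0.64 to 0.71 and -0.48 to 0.60. The intervals leave room for moderate changes in both directions.

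Heme oxygenase, hmox1 (chromosome 4, 115580468 to 115587518), opens the heme ring and is a well-known target of heme and of oxidative stress. In F1 it had 12.3 FPKM in BaP and 12.6 FPKM in control livers, a log2 change of -0.04 as listed in the authors' deposited table (interval -0.62 to 0.54). In F2 it had 17.3 FPKM in BaP and 27.5 FPKM in control livers, with -0.67 in the authors' deposited table (interval -1.38 to 0.04, p = 0.0651, q = 0.608). The F2 difference was the second in size among the deposited changes of the members and was not called. Its level relative to alas1 differed accordingly: alas1 had 2.74 times the FPKM of hmox1 in F2 BaP livers and 1.66 times in F2 controls, and 4.35 times in F1 BaP livers and 4.13 times in F1 controls.

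Macrophages of the liver express both hmox1 and slc40a1, so their markers are given beside these genes. Of 13 listed markers, 8 had a row, while marco, mpeg1, c1qb, cd163 and mafb had none under that name. In F2, 6 of 8 tested markers had a log2 fold change above 0, with a median of 0.11 and sums of 205 FPKM in BaP and 191 FPKM in control livers. Cuffdiff called 0 of them, beside 1.32% of all rows, and 0 had an unadjusted p under 0.05, beside 8.9%. In F1, 7 of 8 were above 0, with a median of 0.26 and sums of 350 FPKM in BaP and 248 FPKM in control livers. Of these 8 markers, 0 were called in F1, beside 1.67% of all rows. An unadjusted p under 0.05 was reached by 2 of them in F1, both higher, or 25% beside 8.91% of all rows. After subtraction of FPKM class medians, the medians of the macrophage markers were 0.25 in F1 and 0.13 in F2. The F2 log2 fold changes of hmox1 and slc40a1 were -0.67 and -0.48, neither called. The part of macrophage RNA in these values was not tested.

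Hemopexin, hpx, binds free heme in plasma and returns it to the liver. Its row (chromosome 2, 180075646 to 180110399) begins 5223 bases before the gene's start in RefSeq. It had 647 FPKM in BaP and 552 FPKM in control livers of F1, and 225 FPKM in BaP and 157 FPKM in control livers of F2. The BaP level was the higher one in both generations, by log2 fold changes of 0.23 and 0.52 in the authors' deposited tables, with intervals of -0.81 to 1.27 and -0.24 to 1.27 (q = 0.9995 and 0.825). In F2, hpx thus lay above 0 where the hepatocyte markers had a median of -0.30. After subtraction of FPKM class medians, the value of hpx was 0.06 in F1 and 0.71 in F2. The medians of these markers were then 0.02 in F1 and -0.12 in F2. The FPKM of hpx was 2.30 times that of cp in F2 BaP livers and 0.881 times in F2 controls, and 3.71 times in F1 BaP livers and 2.82 times in F1 controls.

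**Figure D3:**
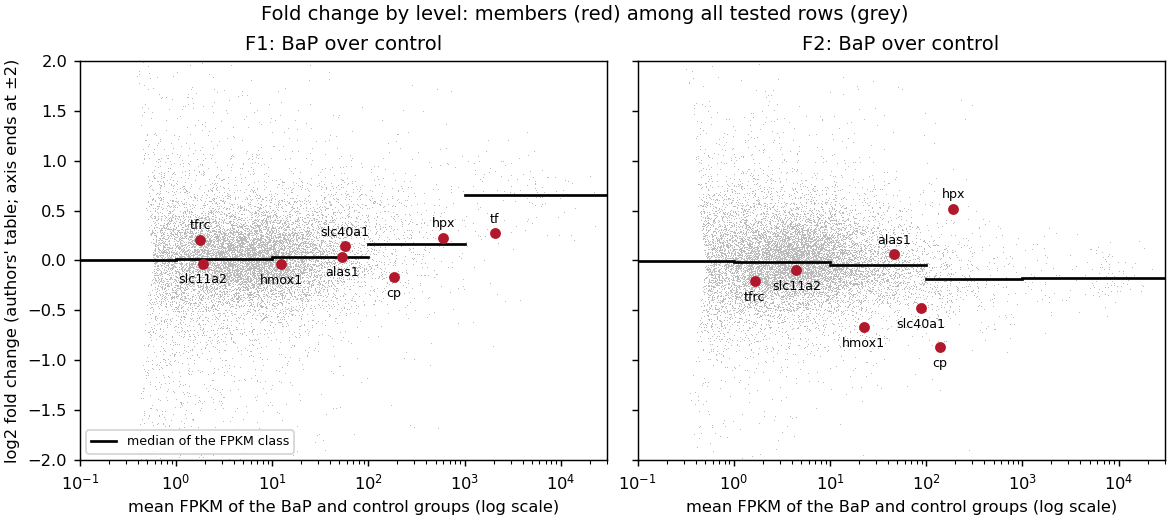
Log2 fold change of BaP over control (vertical axis, ending at 2 on either side, so more extreme rows are not drawn) against the mean FPKM of both groups (log axis) for all tested rows, with the members in red and the median of each FPKM class as a black line. In F1 the class median is 0.66 at 1000 FPKM or more, above the value of tf (0.27), and in F2 it is -0.19 from 100 to 1000 FPKM, above cp (-0.87) and below hpx (0.52).

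Levels can also be set side by side across generations, although the tables were scaled separately and no test was made across them. The level of hpx was 2.88 times as high in F1 as in F2 BaP livers and 3.51 times as high in F1 as in F2 controls. Levels of slc11a2 were higher in F2, by 2.30 times in BaP livers and 2.41 times in controls. Those of hmox1 were 1.41 times as high in F2 as in F1 BaP livers and 2.18 times in controls. For alas1 the ratios of F2 to F1 were 0.886 in BaP livers and 0.873 in controls.

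The lineage change itself was then compared between generations, as the F2 log2 fold change minus that of F1, over 11677 genes tested in both tables with separate controls. At an adjusted p under 0.05, 0 of 7 members differed, where 0.959% of those genes did, and none of the 7 had an unadjusted p under 0.05. The members' differences ran from -0.70 for cp (interval -1.88 to 0.47, adjusted p = 0.841) to 0.29 for hpx (interval -0.99 to 1.57, adjusted p = 0.988), by a normal test built on the p-values of the authors' deposited tables, with Benjamini-Hochberg adjustment. Between these lay hmox1 with -0.63, slc40a1 with -0.62 and tfrc with -0.41 (adjusted p = 0.796, 0.834 and 0.867, built on the authors' deposited tables in the same way). Of the 7, hpx and alas1 were above 0 in both generations, cp, hmox1 and slc11a2 were below 0 in both, and tfrc and slc40a1 were above 0 in F1 and below 0 in F2.

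Around the members, 91 further genes of iron and heme handling had a row, in 5 lists. Rows were found for 16 of 23 listed genes of iron transport and storage and 21 of 28 of iron regulation. For heme synthesis these were 13 of 13, for heme breakdown and binding 10 of 13, and for iron-sulfur clusters 31 of 35. A listed gene without a row may stand under another name. The lists were written with earlier results of these data known, so their shares beside those of all rows are description only. In F1, Cuffdiff called 0 of the 87 tested, beside 1.67% of all rows. An unadjusted p under 0.05 was reached by 6 of them, 5 higher, or 6.90% beside 8.91% of all rows. In F2 it called 2 of 86, or 2.33%, beside 1.32% of all rows, and 5 had an unadjusted p under 0.05, 1 of them higher, or 5.81% beside 8.9%. One of the calls was a rise and the other a fall.

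The gene that rose was slc39a8 (chromosome 1, 73722068 to 73753508), which encodes a zinc, manganese and iron importer of the ZIP family. It had 2.12 FPKM in BaP and 0.834 FPKM in control livers of F2, a log2 change of 1.34 as listed in the authors' deposited table (interval 0.59 to 2.10, q = 0.0408). In F1 it had 1.85 FPKM in BaP and 0.638 FPKM in control livers, a log2 change of 1.54 as listed in the authors' deposited table (interval 0.55 to 2.52, p = 0.00225), which missed the threshold (q = 0.0935). These are low levels: with a pseudocount of 1 FPKM the log2 changes were 0.77 in F2 and 0.80 in F1. Its sister importer slc39a14, a hepatic route for iron not bound to transferrin in mammals, had 25.9 FPKM in BaP and 17.8 FPKM in control livers of F2 and 27.3 FPKM in BaP and 19.9 FPKM in control livers of F1. It was not called in either generation, its log2 change being 0.54 for F2 and 0.46 for F1 as listed in the authors' deposited tables (q = 0.764 and 0.905).

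In the list of iron transport and storage, 9 of 12 tested genes had a positive log2 fold change in F1, with a median of 0.45, beside 0.02 over all rows. The list's median was 0.31 after subtraction of FPKM class medians. Erythrocyte markers, which share slc25a37 with the list, were above 0 in 16 of 16 tested genes of the same comparison, with a median of 0.37, and their part in these values was not tested. In F2, 5 of 12 were above 0 and the median was -0.11. Cuffdiff called 0 genes of the list in F1, beside 1.67% of all rows, and 1 in F2, slc39a8, or 8.33% beside 1.32%. This gene was also the 1 with an unadjusted p under 0.05 in F2, or 8.33% beside 8.9% of all rows. In F1, 4 genes had an unadjusted p under 0.05, all higher, or 33.3% beside 8.91% of all rows. Besides slc39a8, ftmt and ncoa4, the endosomal iron reductase gene steap3 made up those 4 in F1, with 10.2 FPKM in BaP and 6.24 FPKM in control livers and a log2 change of 0.70 as listed in the authors' deposited table (p = 0.047, q = 0.544). In F2, steap3 had 11.5 FPKM in BaP and 15.3 FPKM in control livers. The mitochondrial iron importer gene slc25a28 was the most abundant of the uptake genes, with 404 FPKM in BaP and 370 FPKM in control livers of F1 and 148 FPKM in BaP and 118 FPKM in control livers of F2. Of the heme transporters, flvcr2 and slc48a1 stood at -0.34 and 0.04 (log2) for F1, and at -0.17 and -0.12 for F2, as listed in the authors' deposited tables.

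Hepcidin is encoded by 2 neighbouring genes of chromosome 7 in these tables, hamp (122531462 to 122534197) and hamp2 (122518945 to 122522551). The level of hamp was 892 FPKM in BaP and 869 FPKM in control livers of F1, and 1756 FPKM in BaP and 1795 FPKM in control livers of F2. Its log2 fold changes in the authors' deposited tables were 0.04 and -0.03, and the intervals are wide (-1.21 to 1.29 and -1.51 to 1.45). For hamp2 the levels were 212 FPKM in BaP and 137 FPKM in control livers of F1, and 475 FPKM in BaP and 430 FPKM in control livers of F2. The F1 log2 fold change of hamp2 was 0.64 in the authors' deposited table (p = 0.111, q = 0.778), and neither hepcidin gene was called.

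The list of iron regulation, which holds the hepcidin axis and the cellular iron sensors, had 10 of 21 values above 0 in F1 (median -0.04) and 10 of 20 in F2 (median -0.02). Cuffdiff called 0 of the list in each generation, beside 1.67% of all rows in F1 and 1.32% in F2. An unadjusted p under 0.05 was reached by 0 genes in F1, beside 8.91% of all rows. In F2 it was reached by 2, or 10%, near the 8.9% of all rows, both lower. These were smad7, an inhibitor of the BMP signal that drives hepcidin, with 15.7 FPKM in BaP and 23.6 FPKM in control livers and a log2 change of -0.59 as listed in the authors' deposited table (q = 0.551), and erfe, whose product lowers hepcidin in mammals, with 5.44 FPKM in BaP and 8.20 FPKM in control livers and -0.59 (q = 0.479). The iron regulatory protein gene aco1 had 29.0 FPKM in BaP and 37.0 FPKM in control livers of F2, and fbxl5, an iron-sensing subunit that marks iron regulatory proteins for decay, had 32.7 FPKM in BaP and 23.4 FPKM in control livers. Neither was called (q = 0.886 for aco1 and 0.621 for fbxl5 in the authors' deposited table).

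**Figure D4:**
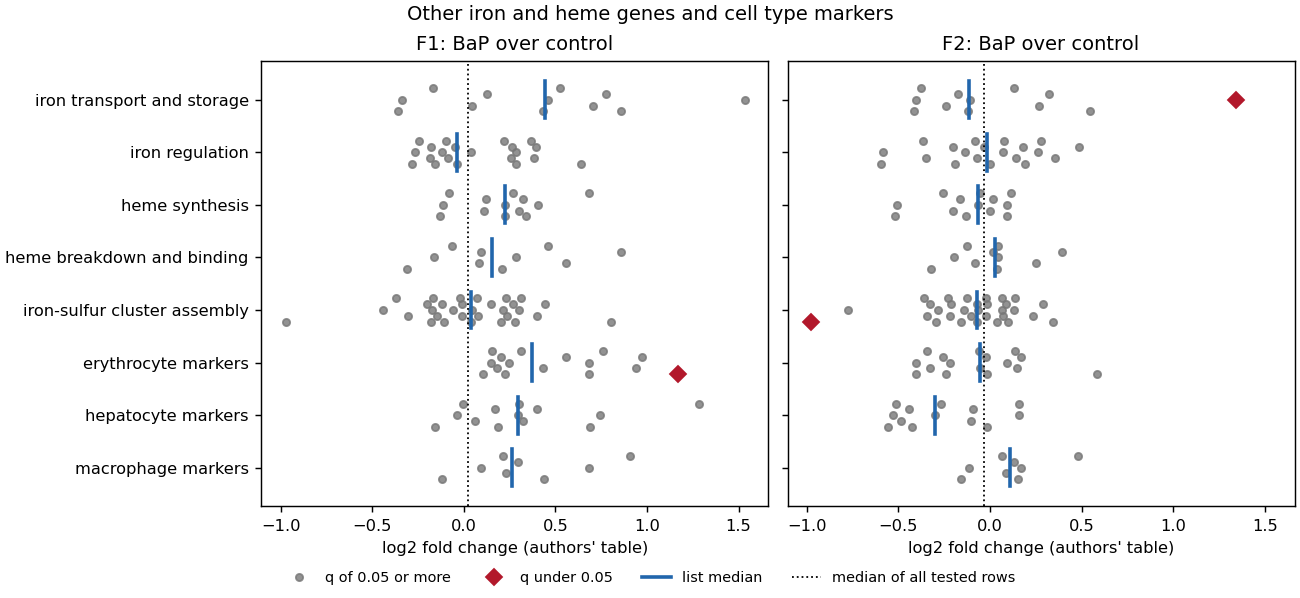
Each point is the log2 fold change of BaP over control (horizontal axis) of a tested gene of the 5 iron and heme lists and of 3 cell type marker lists in F1 (left) and F2 (right), where alas2 and slc25a37 appear in 2 lists each. Diamonds mark q under 0.05: slc39a8 (1.34) and cisd2 (-0.98) in F2 and the globin gene hbd (1.17) in F1.

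Genes of heme synthesis other than alas1 had 10 of 13 log2 fold changes above 0 in F1 (median 0.22) and 5 of 13 in F2 (median -0.07). Over all tested rows, 53.2% were above 0 in F1 (median 0.02) and 45.8% in F2 (median -0.03). Cuffdiff called 0 of these heme synthesis genes in each generation, beside 1.67% of all rows in F1 and 1.32% in F2. None had an unadjusted p under 0.05, beside 8.91% of all rows in F1 and 8.9% in F2. The list includes alas2, the ALA synthase of red cells, which had 252 FPKM in BaP and 157 FPKM in control livers of F1 and 392 FPKM in BaP and 367 FPKM in control livers of F2. In level, alas2 exceeded alas1 in every group, by 4.71 times in F1 BaP livers and 3.01 times in F1 controls, and by 8.25 times in F2 BaP livers and 8.06 times in F2 controls. Frog red cells are nucleated and carry RNA. Erythrocyte markers, alas2 among them, had 16 of 16 tested values above 0 in F1 (median 0.37). Their sums were 10022 FPKM in BaP and 6499 FPKM in control livers. Most of each sum was the globin gene hbg2, not called (q = 0.9995, Cuffdiff), with 7562 FPKM in BaP and 5144 FPKM in control livers. The 1 marker called was the globin gene hbd, with 221 FPKM in BaP and 98.2 FPKM in control livers. The call made 6.25% of the tested markers, beside 1.67% of all rows. An unadjusted p under 0.05 was reached by 5 of the 16 in F1, all higher, or 31.25% beside 8.91% of all rows. In F2, 5 of 16 were above 0 (median -0.06). Of the 16, 0 were called by Cuffdiff in F2, beside 1.32% of all rows, and 0 had an unadjusted p under 0.05, beside 8.9%. The F2 sums were 8413 FPKM in BaP and 10182 FPKM in control livers, of which hbg2 made 4991 FPKM and 5955 FPKM. The sums over all tested rows were likewise higher in BaP livers in F1 (973972 against 712518 FPKM) and lower in F2 (1014860 against 1120690 FPKM). After subtraction of FPKM class medians, the medians of the erythrocyte markers were 0.25 in F1 and -0.008 in F2. The globin genes hba1 and hbg1 are marked as having too much data in both tables. The part of red cell RNA in the heme synthesis values was not tested.

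Heme breakdown and binding genes other than hmox1 and hpx had 7 of 10 values above 0 in F1 (median 0.15) and 6 of 10 in F2 (median 0.03). Cuffdiff called 0 of them in each generation, beside 1.67% of all rows in F1 and 1.32% in F2. None had an unadjusted p under 0.05, beside 8.91% of all rows in F1 and 8.9% in F2. The most abundant was ambp, whose product includes the heme-binding plasma protein alpha-1-microglobulin, with 2071 FPKM in BaP and 1143 FPKM in control livers of F1 and 1759 FPKM in BaP and 1706 FPKM in control livers of F2. Its F1 log2 fold change was 0.86 in the authors' deposited table (p = 0.0994, q = 0.743), and 0.20 after subtraction of the median of rows at that level. Biliverdin reductase B, blvrb, had 124 FPKM in BaP and 116 FPKM in control livers of F1 and 108 FPKM in BaP and 135 FPKM in control livers of F2.

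Iron-sulfur cluster genes held the second call. The gene that fell was cisd2 (chromosome 1, 73531103 to 73538164), which encodes a protein of the endoplasmic reticulum and mitochondrial outer membrane that carries such a cluster rather than building it. It had 12.4 FPKM in BaP and 24.3 FPKM in control livers of F2, a log2 change of -0.98 as listed in the authors' deposited table (interval -1.52 to -0.44, q = 0.0308). In F1 it had 8.68 FPKM in BaP and 11.8 FPKM in control livers, a log2 fold change of -0.44 that was not called in the authors' deposited table (q = 0.870). In the whole list, 16 of 31 values were above 0 in F1 (median 0.04) and 11 of 31 in F2 (median -0.07). Cuffdiff called 0 of the list in F1, beside 1.67% of all rows, and 1 in F2, cisd2, or 3.23% beside 1.32%. An unadjusted p under 0.05 was reached by 2 genes in each generation, or 6.45%, less than the 8.91% of all rows in F1 and 8.9% in F2.

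In F1 those genes were nubpl, an assembly factor that supplies clusters to respiratory complex I, and bola3, which serves in late cluster transfer. The level of nubpl was 15.7 FPKM in BaP and 30.7 FPKM in control livers of F1, a log2 change of -0.97 as listed in the authors' deposited table (interval -1.57 to -0.37, q = 0.0774), and 6.67 FPKM in BaP and 5.66 FPKM in control livers of F2, with 0.24. The generations differed by 1.205 in nubpl, which did not pass after adjustment (adjusted p = 0.154, the same test built on the authors' deposited tables). For bola3 the F1 levels were 15.3 FPKM in BaP and 8.78 FPKM in control livers (log2 change 0.80 and q = 0.392 as listed in the authors' deposited table). In F2, isca1, a carrier of nascent clusters, had 5.24 FPKM in BaP and 8.97 FPKM in control livers (log2 change -0.78 and q = 0.286 as listed in the authors' deposited table). The scaffold gene iscu, on which clusters are first built, had 43.3 FPKM in BaP and 35.1 FPKM in control livers of F1 and 54.1 FPKM in BaP and 62.9 FPKM in control livers of F2, and was not called.

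Of the other cell type markers, endothelial genes had 5 of 9 values above 0 in F1 and 2 of 7 in F2. Cuffdiff called 0 of these endothelial genes, beside 1.67% of all rows in F1 and 1.32% in F2. An unadjusted p under 0.05 was reached by 0 of them in F1, beside 8.91% of all rows, and 1 in F2, or 14.3% beside 8.9%. Stellate and smooth muscle genes had 5 of 6 values above 0 in F1 and 4 of 6 in F2. Cuffdiff called 0 of them in F1, beside 1.67% of all rows, and 1 in F2, or 16.7% beside 1.32%. The called one was the actin-binding protein gene tagln, with 10.4 FPKM in BaP and 18.9 FPKM in control livers of F2 (q = 0.0491 in the authors' deposited table). An unadjusted p under 0.05 was reached by 1 of 6 in each generation, or 16.7%, higher in F1 and lower in F2. Over all rows that share was 8.91% in F1 and 8.9% in F2. Pigment cell genes had 1 of 4 tested values above 0 in F1, with 0 called by Cuffdiff, beside 1.67% of all rows. All 4 had an unadjusted p under 0.05, 1 higher and 3 lower, beside 8.91% of all rows. The melanosome gene pmel, the 1 tested in F2, was called lower there, where 1.32% of all rows were called. It had 1.07 FPKM in BaP and 3.06 FPKM in control livers (q = 0.0130 in the authors' deposited table).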

How the data were processed

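Liver RNA of 21 frogs in 4 groups was sequenced as 75 bp reads from stranded mRNA libraries, per the labels' protocols. The submitters' processing notes name Cuffdiff 0.0.7 and Cufflinks 0.0.7, HISAT2 and Trimmomatic 0.32.1. Their settings are not given in the sources at hand. The deposited FPKM stands for a whole group, 1 value for each gene, and was not rescaled here. The deposited log2 fold change divides BaP by control and adds no pseudocount. The authors' p-value and q-value stand beside it, and the authors' test statistic is a score. In both tables the normal quantile of the p exceeded that statistic by a median of 2.29 times, so a standard error from the statistic is wider. Depth per library is unknown.

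The authors' test was not repeated. A standard error was computed as the size of the log2 fold change over the normal quantile of the p, and from it the 95% interval and the F2 minus F1 difference, whose normal p was adjusted by Benjamini-Hochberg over 11677 genes. This step was checked on simulated data. The simulated p came from the same normal quantile, so the check cannot tell whether that quantile suits the authors' p. Python 3.11.15, pandas 2.3.3 and scipy 1.17.1 were used. Positions are those of the tables, counted from 1. The chromosome comes from matching names to the RefSeq gene table of assembly UCB_Xtro_10.0, where 91.6% of 20077 matched rows have identical ends.

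The members and lists were chosen with earlier results of these data known. Named genes were every member, and of each list the genes called, those with an unadjusted p under 0.05, and the 2 of highest mean FPKM per role. Of the marker lists, named genes were those called and the 3 of highest mean FPKM, of which a few are shown. Alternatives were q under 0.01 or 0.1, q recomputed, a fold minimum of 1.5, an FPKM minimum and a pseudocount of 1, centred fold changes, and for the difference other standard errors and its own spread.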

Additional observations from a re-analysis of the deposited data

Results flagged for a closer look

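No iron or heme handling gene met a criterion for closer inspection. Among the erythrocyte markers set beside heme synthesis, the globin gene hbd stood at a log2 change of 1.17 for F1 and -0.34 for F2 as listed in the authors' deposited tables. The F2 minus F1 difference was -1.51 (adjusted p = 0.0408, a normal test built on the p-values of the authors' deposited tables). Built on the same values of the authors' deposited tables, it did not pass with the difference scaled to its own spread (adjusted p = 0.0686), after subtraction of FPKM class medians (adjusted p = 0.234) or with standard errors from the test statistic (adjusted p = 0.999999).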

How the results depend on the processing

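No paired analysis was possible because the tables hold 1 value per group, and for the same reason leaving out single frogs was not run. The count of members called was 0 in each generation, and the count of members whose change differed between generations was also 0. Both were the same under every alternative run. For the count of members called, one alternative chosen after seeing the data adds the row with tfr2. The q of that row was 0.9995 in F1 and 0.981 in F2, so adding it could only keep the count. A stricter q, a fold minimum, wider standard errors and the scaled difference could only keep a count of 0, so these settings do not bear on its stability. Nor does the FPKM minimum of 1, since the lowest usable level of a member was 1.53 FPKM (tfrc, F2 BaP livers). Of the other iron and heme genes, 2 were called in F1 at q under 0.1 (slc39a8 and nubpl), against 0, and 0 in F2 at q under 0.01, against 2. Leaving out alas2 and slc25a37, which are also erythrocyte markers, was an alternative chosen after seeing the data. Neither gene was called, so this could not change the counts at q under 0.05. Subtracting the median of the FPKM class turned the F1 values of tf (-0.39), slc25a28 (-0.041), hamp (-0.13) and blvrb (-0.072) below 0 and the F2 value of hamp (0.15) above 0. Subtracting the median of all tested rows turned the F2 value of hamp to 0.00098. None of these was called. The recomputed q matched the deposited q to within 5.3e-07 in both generations, so it turned no call and is no separate check. The pseudocount leaves the authors' test as it is and, being added to both groups, cannot turn a sign. It moved slc39a8 to 0.77 in F2, against 1.34, and to 0.80 in F1, against 1.54. Intervals are too wide for most members to exclude a change of moderate size.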

Other observations

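Both called genes of the iron and heme lists, cisd2 and slc39a8, lie on chromosome 1 with 184 kb between them, a proximity noticed after the calls were seen. The 3 rows between them, ube2d3, manba and nfkb1, were tested in both generations. None was called by Cuffdiff, beside 1.67% of all rows in F1 and 1.32% in F2. None had an unadjusted p under 0.05, beside 8.91% of all rows in F1 and 8.9% in F2. In F2 the log2 fold changes in the authors' deposited table were -0.98 for cisd2, 0.06 for ube2d3, -0.08 for manba, 0.02 for nfkb1 and 1.34 for slc39a8. In F1 they were -0.44, 0.30, 0.08, -0.11 and 1.54 in the same order. The 2 end genes thus lay on opposite sides of 0 in both generations. The 3 between them lay closer to 0 in F2 than either, but the ends were picked by their F2 calls, so this is no separate result.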
